A study of Mus musculus with 6 samples.

Results

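The genes described here are 10 genes of iron handling and metal binding, chosen by name from the 54532 genes in the deposited tables. They are the iron importers and metal transporters Tfrc, Slc11a2 and Slc11a1, the ferritin chains Fth1 and Ftl1, the ferritin receptor Ncoa4, the iron exporter Slc40a1, the siderophore-binding protein Lcn2 and the metallothioneins Mt1 and Mt2. All 10 were listed in every table. Their expression was measured by RNA-seq in iBMDMs, a line of mouse bone marrow-derived macrophages made immortal with retroviruses carrying v-raf and v-myc. The Control group expressed a control shRNA and the PGAM5 KD group an shRNA against PGAM5, a mitochondrial protein phosphatase, both delivered by lentivirus, and each group had 3 libraries. Both groups received LPS, a bacterial activator of TLR4, at 100 ng/ml for 4 hours, so the values compare cells after LPS and measure no induction over untreated cells. How many shRNA sequences each group carried is not given in the sources used here. No library labelled as a second shRNA or as rescued cells was analysed here.

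Iron enters macrophages bound to transferrin or inside engulfed red cells, is stored in the hollow shell of ferritin, and leaves through ferroportin, the product of Slc40a1. Iron regulatory proteins bind a stem-loop, the iron responsive element, in mRNAs of this pathway when iron is scarce. When bound, a stem-loop before the coding region blocks translation, and bound stem-loops after the coding region of Tfrc protect its mRNA from decay. Metallothioneins are small cysteine-rich proteins that bind zinc and copper, and their genes are switched on by the zinc sensor Mtf1.

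The stem-loops that a letter search found in members are shown, as the sequence feature that ties ferritin, Tfrc and Slc40a1 to iron regulatory proteins. UTRs of 22527 coding genes in the GENCODE M21 annotation of GRCm38 were searched for an unpaired C, 5 bases of stem, the loop CAGTGN and 5 bases that pair with the stem. Of these genes, 175 (0.777%) held a match in a UTR. Among the members, Fth1, Ftl1 and Slc40a1 held 1 match each in the 5′ UTR and Tfrc held 4 in the 3′ UTR. A window of 29 bases around each match is given 5′ to 3′ on the strand of the gene, with the loop in capitals.
Fth1, 5′ UTR, chr19:9982732-9982760, plus strand: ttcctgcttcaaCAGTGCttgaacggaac
Ftl1, 5′ UTR, chr7:45459779-45459807, minus strand: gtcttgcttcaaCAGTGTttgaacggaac
Slc40a1, 5′ UTR, chr1:45925465-45925493, minus strand: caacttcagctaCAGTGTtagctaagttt
Tfrc, 3′ UTR, chr16:32631219-32631247, plus strand: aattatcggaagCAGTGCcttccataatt
Tfrc, 3′ UTR, chr16:32631598-32631626, plus strand: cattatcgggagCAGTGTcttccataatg
Tfrc, 3′ UTR, chr16:32631663-32631691, plus strand: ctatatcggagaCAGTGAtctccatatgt
Tfrc, 3′ UTR, chr16:32631710-32631738, plus strand: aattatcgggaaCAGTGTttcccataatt
The ferritin elements of Fth1 and Ftl1 shared the same stem around the loop, while the 4 elements of Tfrc differed from each other in the stem. The other members, Slc11a2 included, held no match to these letters in the UTRs searched, which does not show that their mRNAs lack an element.

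Library depth was between 18163463 and 24388915 fragments, as recovered from FPKM, a unit that scales the fragments on a gene by its exon length and by library depth. Pgam5 itself was at 17.1, 13.0 and 13.4 FPKM in Control libraries and at 4.33, 5.75 and 4.53 FPKM in PGAM5 KD libraries, lower in each PGAM5 KD library (log2 fold change −1.40, standard error (SE) 0.13, limma adjusted p = 0.000358). Of 10 macrophage markers, 9 had a mean of at least 1 FPKM and Mertk was listed at 0. The 10 markers summed to between 2987 and 3073 FPKM in Control and between 2700 and 2729 FPKM in PGAM5 KD, but the single markers moved in both directions. Lyz2, the highest of them, Cd68 and Csf1r were lower in each PGAM5 KD library, Cd14, Adgre1, Fcgr1 and Itgam were higher in each, and Ptprc and Spi1 overlapped. Lyz2 was at 1638 to 1698 FPKM in Control and at 1239 to 1279 FPKM in PGAM5 KD, and Cd14 at 456 to 470 and at 671 to 698 FPKM. Whether these markers bear on the results for the iron genes was not tested. No marker of neutrophils, erythroid cells, hepatocytes, fibroblasts or lymphocytes reached a mean of 1 FPKM. In bulk RNA, fewer cells expressing a gene and less RNA per cell cannot be told apart.

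Log2(FPKM + 1) was compared with limma over the 10540 genes with a mean of at least 1 FPKM, and 8 of the 10 members passed this filter. A gene was called at an adjusted p under 0.05. Tfrc, Slc11a2, Fth1 and Ftl1 fell in PGAM5 KD, which made 4 called members of 8 tested, and no member rose. Over all genes tested, 31.7% were called, 14.9% lower and 16.8% higher. With protein-coding genes only, 5 of the 8 members were called beside 3506 of 9338 over all genes. The libraries did not overlap between the groups for 47.1% of all genes, and with all PGAM5 KD libraries lower for 22.9%, against 5 of the 8 members, each of these lower in PGAM5 KD. The median log2 fold change was −0.27 over the 8 members and 0.01 over all genes tested. None of the 8 tested members had a fitted change above 2-fold, a size that 139 genes (1.32%) passed together with the adjusted threshold. The p-values measure the spread between these libraries, which the labels do not describe as separate cultures.

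**Figure D1:**
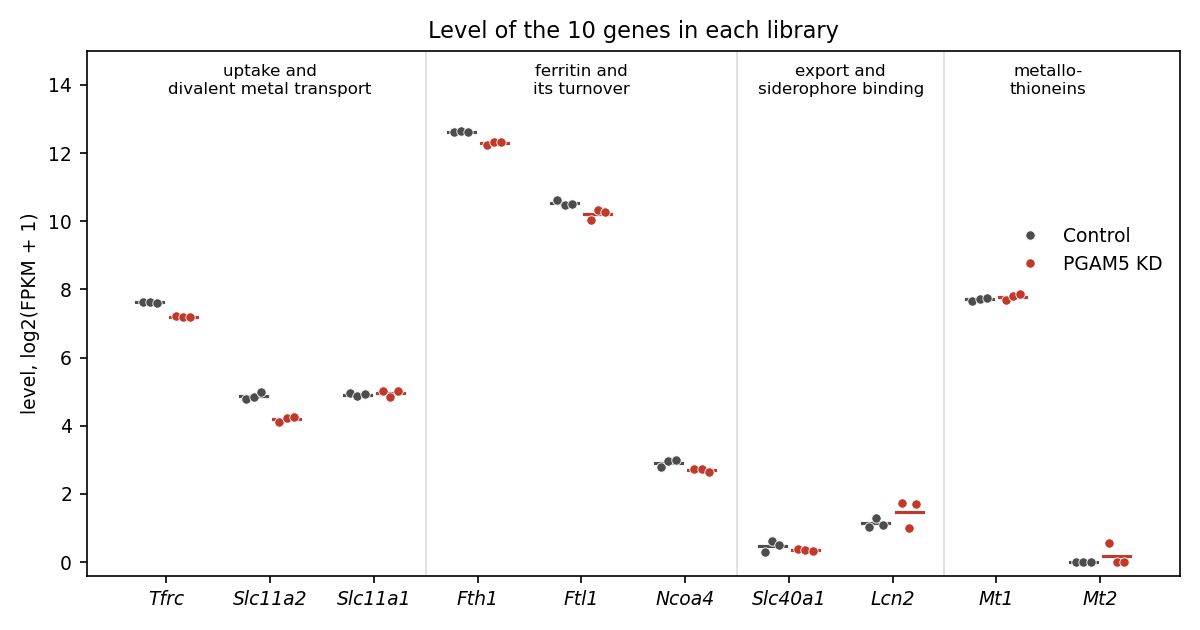
Level of the 10 genes in each library as log2(FPKM + 1), with Control libraries in grey and PGAM5 KD libraries in red (points, 3 per group) and group means as lines. Tfrc, Slc11a2, Fth1, Ftl1 and Ncoa4 show PGAM5 KD libraries all below Control, and Mt2 sits at 0 in 5 of 6 libraries.

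Tfrc encodes the transferrin receptor, which carries transferrin-bound iron into the cell. Tfrc (ENSMUSG00000022797, GRCm38 chromosome 16, 32608920 to 32632794, plus strand) was at 198, 199 and 194 FPKM in Control and at 147, 145 and 145 FPKM in PGAM5 KD. The groups did not overlap, and libraries within a group lay within a few FPKM of each other. The mean fell by 26.1%, a log2 fold change of −0.43 (SE 0.03, limma adjusted p = 7.74e-05). Tfrc passed the threshold under each alternative, with log2 fold changes from −0.53 to −0.43.

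Slc11a2 encodes DMT1, which moves ferrous iron out of endosomes after transferrin has released it. Slc11a2 (ENSMUSG00000023030, chromosome 15, 100387898 to 100425072, minus strand) was at 26.5, 27.8 and 30.6 FPKM in Control and at 16.3, 17.8 and 18.1 FPKM in PGAM5 KD. Each PGAM5 KD library was below each Control library. The mean was 28.3 ± 2.14 FPKM in Control and 17.4 ± 0.951 FPKM in PGAM5 KD (SD, n = 3 each), the largest log2 fold change in size among the tested members. The log2 fold change was −0.67 (SE 0.07, limma adjusted p = 0.000498), and it stayed between −0.77 and −0.61 with the call kept under each alternative.

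Slc11a1 encodes NRAMP1, the metal transporter of the phagosome membrane and a paralog of DMT1. The coding sequences of Slc11a1 and Slc11a2 were 65.3% identical, with a longest shared run of 20 bases. Slc11a1 (ENSMUSG00000026177, chromosome 1, 74375195 to 74386062, plus strand) was at 29.9, 28.0 and 29.5 FPKM in Control and at 31.3, 27.5 and 31.7 FPKM in PGAM5 KD. These libraries overlapped, and PGAM5 KD replicate 2 was the lowest of all 6. The log2 fold change was 0.05 (SE 0.06, limma adjusted p = 0.605) and −0.03 after scaling to TPM, so no direction could be given. In Control the FPKM ranges of Slc11a1 and Slc11a2 overlapped, and in PGAM5 KD Slc11a1 lay above Slc11a2 in each library. Per kilobase of the first-numbered transcript, the order in Control was the other way, with a mean of 59.4 for Slc11a2 and 46.6 for Slc11a1.

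Fth1 encodes the ferritin heavy chain, which oxidizes ferrous iron for storage. Fth1 (ENSMUSG00000024661, chromosome 19, 9980598 to 9985098, plus strand) was at 6325, 6358 and 6282 FPKM in Control and at 4866, 5151 and 5133 FPKM in PGAM5 KD. It ranked between 2nd and 3rd of all genes by FPKM in each library and took 2.18% to 2.21% of all fragments in Control and 1.69% to 1.79% in PGAM5 KD. The groups did not overlap, and the mean fell by 20.1%, from 6322 ± 38.1 to 5050 ± 160 FPKM (SD, n = 3 each). The log2 fold change was −0.32 (SE 0.03, limma adjusted p = 0.000376). The call was lost when low genes were kept in the test (limma adjusted p = 0.183). It was also lost with quantile normalization (−0.11, limma adjusted p = 0.371), which sets equal ranks to equal values. Fth1 ranked 3rd in PGAM5 KD replicate 1 and 2nd in every other library, so this setting gave it equal values outside that library. This normalization could not show the fall in FPKM of PGAM5 KD replicates 2 and 3.

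Ftl1 encodes the ferritin light chain, which aids the mineral core. Ftl1 (ENSMUSG00000050708, chromosome 7, 45457944 to 45459884, minus strand) was at 1564, 1426 and 1451 FPKM in Control and at 1041, 1289 and 1229 FPKM in PGAM5 KD. The groups did not overlap, and Control replicate 1 was the highest and PGAM5 KD replicate 1 the lowest. The mean fell by 19.9%, from 1480 ± 73.3 to 1186 ± 129 FPKM (SD, n = 3 each), a log2 fold change of −0.32 (SE 0.08, limma adjusted p = 0.0216). The call of Ftl1 did not hold without Control replicate 1 (limma adjusted p = 0.0672), without Control replicate 3 (adjusted p = 0.0542) or when low genes were kept in the test (adjusted p = 0.0941).

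The FPKM of both ferritin chains fell by nearly the same share. With quantile normalization the log2 fold change was −0.11 for Fth1 and −0.39 for Ftl1 (limma adjusted p = 0.371 and 0.0367). That setting replaces levels by ranks, and Fth1 stayed at rank 2 or 3 while Ftl1 ranked between 9 and 26. It therefore cannot compare the falls of the chains. Fth1 FPKM divided by Ftl1 FPKM was 4.28 ± 0.211 in Control and 4.28 ± 0.351 in PGAM5 KD (SD, n = 3 each). On the log2 scale the ratio was 2.02, 2.16 and 2.11 in Control and 2.22, 2.00 and 2.06 in PGAM5 KD, and the group means differed by less than the spread within either group (exact two-sided permutation test, p = 1, where the smallest p that 3 against 3 libraries allow is 0.1). The ratio depends on the length used. FPKM follows the summed exon length, 3469 bases for Fth1 against 929 bases in its first-numbered transcript, and 1340 against 968 bases for Ftl1. Per kilobase of those transcripts, Control levels were 23606 for Fth1 and 2049 for Ftl1.

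**Figure D2:**
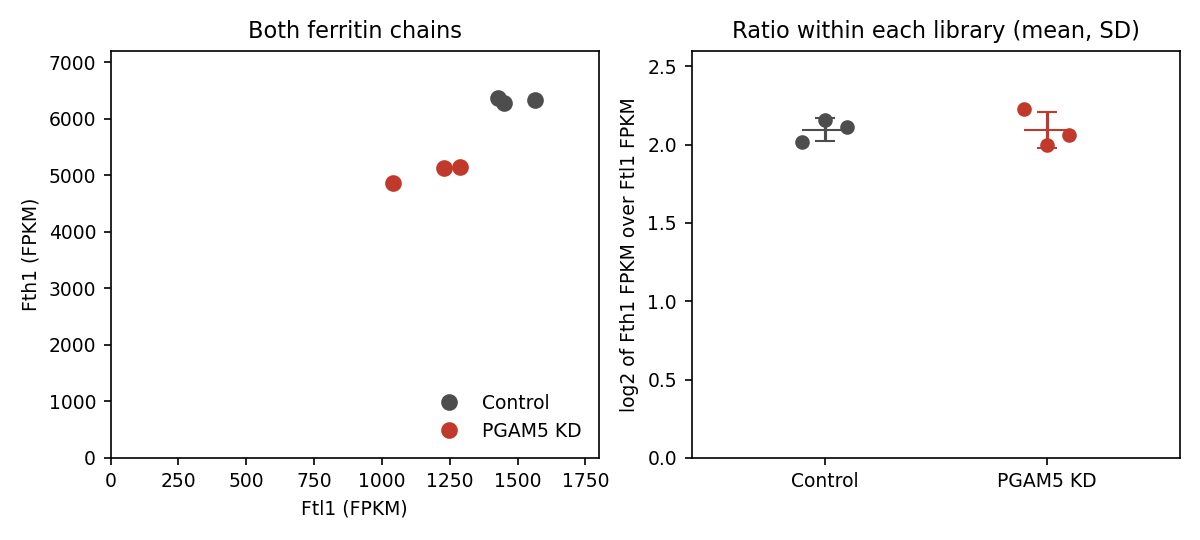
Left, Fth1 FPKM against Ftl1 FPKM, 1 point per library, with Control in grey and PGAM5 KD in red, where the 3 PGAM5 KD libraries lie below and to the left of the Control libraries. Right, log2 of the Fth1 to Ftl1 ratio per library with the group mean (bar) and SD, from 2.00 to 2.22 over the 6 libraries.

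Ferritin genes have many processed copies in the mouse genome, and fragments from a gene and its copy can be assigned to either. Genes at least 85% identical over at least 200 bases were searched with blastn, and pseudogenes named after a ferritin gene were added. For Fth1, 3 such pseudogenes were listed, Fth-ps2, Fth-ps3 and Gm6977, and each had 0 fragments in all 6 libraries. For Ftl1, 17 such genes lay outside its own locus and were in the tables, and 8 of them had fragments. Ftl1-ps1, 99.6% identical to Ftl1 over 910 bases and annotated as protein coding, had between 492 and 684 fragments per library. Cars, a cysteine-tRNA ligase gene that resembles Ftl1 over 216 bases (86.6% identity) and is expressed itself, had between 1594 and 2340 fragments. The look-alike genes held 5.71% to 8.31% of the fragments on Ftl1 and its look-alikes, and the PGAM5 KD libraries lay above the Control libraries by 1.32 percentage points in the mean (exact two-sided permutation test, p = 0.1, the smallest possible). Without Cars the share was 1.62% to 2.02%, and the groups overlapped (difference 0.0358 percentage points, exact two-sided permutation test, p = 0.8). With all its look-alikes added, Cars included, Ftl1 had a log2 fold change of −0.30 (limma adjusted p = 0.0213). Most of the fragments added were those of Cars, and a sum without Cars was not tested. In addition, 26.5% of the exon bases of Ftl1 lie within an exon of Gm10252 on the opposite strand, which had between 19 and 45 fragments, and how fragments from this stretch were assigned is not given in the sources used here.

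Ncoa4 encodes the cargo receptor that delivers ferritin to lysosomes, where its iron is released. Ncoa4 (ENSMUSG00000056234, chromosome 14, 32159865 to 32179855, plus strand) was at 5.91, 6.77 and 6.93 FPKM in Control and at 5.57, 5.63 and 5.24 FPKM in PGAM5 KD. The groups did not overlap, but Control replicate 1 lay near the PGAM5 KD libraries. The log2 fold change was −0.22 (SE 0.07, limma adjusted p = 0.0551), and it passed the threshold without Control replicate 1 (−0.28, adjusted p = 0.0285), after scaling to TPM (−0.31, adjusted p = 0.022), with voom on the recovered fragments (−0.26, adjusted p = 0.00912) and with protein-coding genes only (adjusted p = 0.042). A processed pseudogene, Gm6768, is 99.9% identical to Ncoa4 over 1878 bases and held 11.3% to 18.1% of the fragments on both genes. With Gm6768 added, the log2 fold change of Ncoa4 was −0.18 (limma adjusted p = 0.056).

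Slc40a1 and Lcn2 had low levels in all libraries. Slc40a1 (ENSMUSG00000025993, chromosome 1, 45908068 to 45926523, minus strand), the gene of ferroportin, was at 0.239, 0.529 and 0.427 FPKM in Control and at 0.308, 0.281 and 0.241 FPKM in PGAM5 KD, with 39 to 96 fragments per library. It was under the filter and was not tested, and its libraries overlapped between the groups. Lcn2 encodes lipocalin-2, a secreted protein that captures bacterial iron carriers. Lcn2 (ENSMUSG00000026822, chromosome 2, 32384633 to 32388252, minus strand) was at 1.05, 1.45 and 1.13 FPKM in Control and at 2.32, 0.987 and 2.27 FPKM in PGAM5 KD. PGAM5 KD replicates 1 and 3 lay above all Control libraries and replicate 2 below them. The log2 fold change of Lcn2 was 0.34 (SE 0.21, limma adjusted p = 0.273), and it was 0.58 without PGAM5 KD replicate 2 (adjusted p = 0.0262), 0.21 without replicate 1 (adjusted p = 0.542) and 0.22 without replicate 3.

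**Figure D3:**
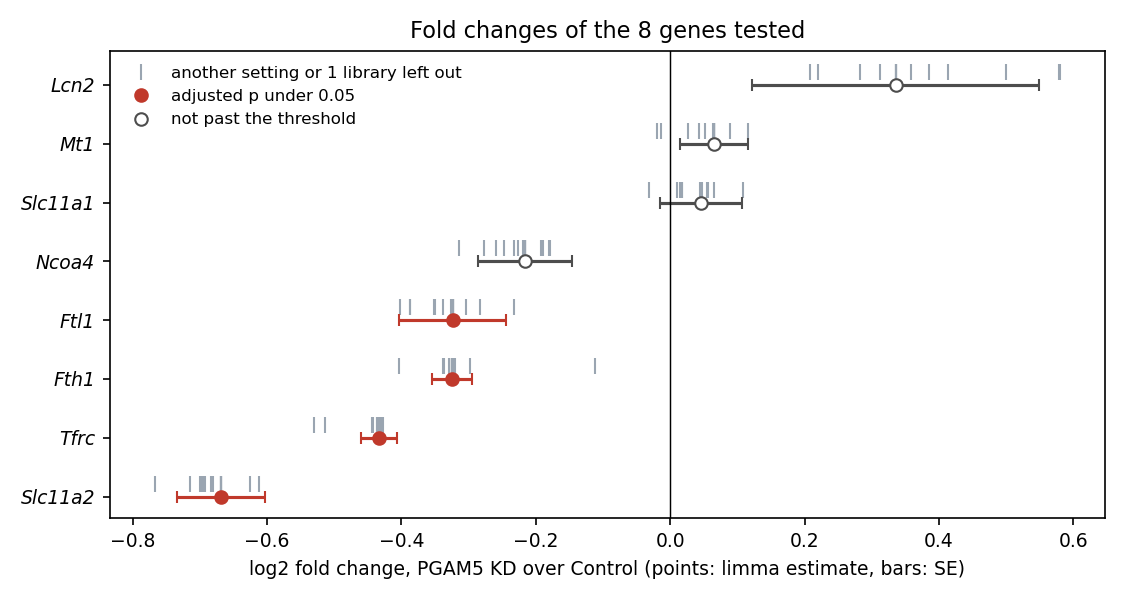
Log2 fold change of PGAM5 KD over Control for the 8 tested genes (points, limma estimate; bars, SE; filled red, adjusted p under 0.05), with each alternative setting or left-out library as a grey tick above the point. The filled points are Slc11a2, Tfrc, Fth1 and Ftl1, between −0.67 and −0.32.

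The coding sequences of Mt1 and Mt2 are shown because their likeness bears on how reads of either gene can be placed. Both have 186 bases in the GENCODE M21 transcripts, and 148 of these (79.6%) are identical. The 38 bases that differ are in capitals.
Mt1: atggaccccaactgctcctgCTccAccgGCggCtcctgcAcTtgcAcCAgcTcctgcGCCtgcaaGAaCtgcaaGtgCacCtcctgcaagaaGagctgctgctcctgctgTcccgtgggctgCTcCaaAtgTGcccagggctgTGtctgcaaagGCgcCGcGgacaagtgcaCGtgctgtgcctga
Mt2: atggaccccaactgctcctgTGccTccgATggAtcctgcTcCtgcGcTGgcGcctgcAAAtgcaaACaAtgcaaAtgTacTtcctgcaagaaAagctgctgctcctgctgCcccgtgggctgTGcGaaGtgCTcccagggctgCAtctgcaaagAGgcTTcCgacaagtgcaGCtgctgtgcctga
The longest run without a difference was 20 bases, so a longer read within the coding region would cross at least 1 difference.

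Mt1 (ENSMUSG00000031765, chromosome 8, 94179082 to 94180327, plus strand) was at 202, 208 and 216 FPKM in Control and at 203, 222 and 230 FPKM in PGAM5 KD. The groups overlapped, and Mt1 ranked between 204th and 223rd of all genes. The mean was 209 ± 6.56 FPKM in Control and 219 ± 13.8 FPKM in PGAM5 KD (SD, n = 3 each), a log2 fold change of 0.07 (SE 0.05, limma adjusted p = 0.368) that was −0.01 after scaling to TPM and −0.02 with quantile normalization. Without PGAM5 KD replicate 1 it was 0.12 (adjusted p = 0.0641), and without replicate 3 it was 0.03. By FPKM, Mt1 lay above Tfrc in each library of both groups and below Ftl1.

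The promoter of Mt1 is shown as the stretch through which metals act on this gene. In the RefSeq sequence (GRCm38.p6, chr8:94178839-94179138, plus strand, 250 bases before to 50 bases after the start), both strands were searched for the core of the metal response element, TGCACNC or TGCGCNC, and matches are in capitals.
Mt1 promoter: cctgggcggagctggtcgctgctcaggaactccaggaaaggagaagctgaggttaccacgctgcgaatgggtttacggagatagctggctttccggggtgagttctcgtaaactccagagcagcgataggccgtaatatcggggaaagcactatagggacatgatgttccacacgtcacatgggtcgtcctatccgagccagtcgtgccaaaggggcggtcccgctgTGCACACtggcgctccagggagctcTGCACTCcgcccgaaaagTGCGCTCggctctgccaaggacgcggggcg
Mt1 held 3 matches and Mt2 held 4, and 1.97% of 32851 promoters of this length held at least 3, while 25.7% held at least 1. A match to these letters does not show binding of a factor.

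Mt2 (ENSMUSG00000031762, chromosome 8, 94172664 to 94173568, plus strand) was listed at 0 in 5 libraries and at 0.464 FPKM, 6 fragments, in PGAM5 KD replicate 1. A count of 0 allowed up to 3 fragments, or 0.209 to 0.281 FPKM in those 5 libraries. Of its 588 exon bases, 432 (73.5%) lie within an exon of Gm45774, an antisense gene on the opposite strand that itself had 0 to 4 fragments per library. Little Mt2 RNA and fragments not assigned to either gene cannot be told apart from these values. Among the 176 coding genes with more than 50% and less than 100% of their exon bases covered, Mt2 being one, 43.2% had a mean of at least 10 fragments and 35.2% were at 0 in all 6 libraries. Of 37 coding genes whose exons lie entirely within exons of the opposite strand, 36 were at 0 in all 6 libraries and 0 had a mean of at least 10 fragments. Of the 16696 coding genes with no such cover, 44.4% had that mean and 41.8% were at 0. Of 25 genes covered at least as much as Mt2 with no more uncovered bases, 18 were at 0 in all libraries and 2 had a mean of at least 10 fragments. The ratio of Mt1 to Mt2 was not compared between the groups, since Mt2 was at 0 in 5 libraries. Whether the libraries kept strand is not given in the sources used here.

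**Figure D4:**
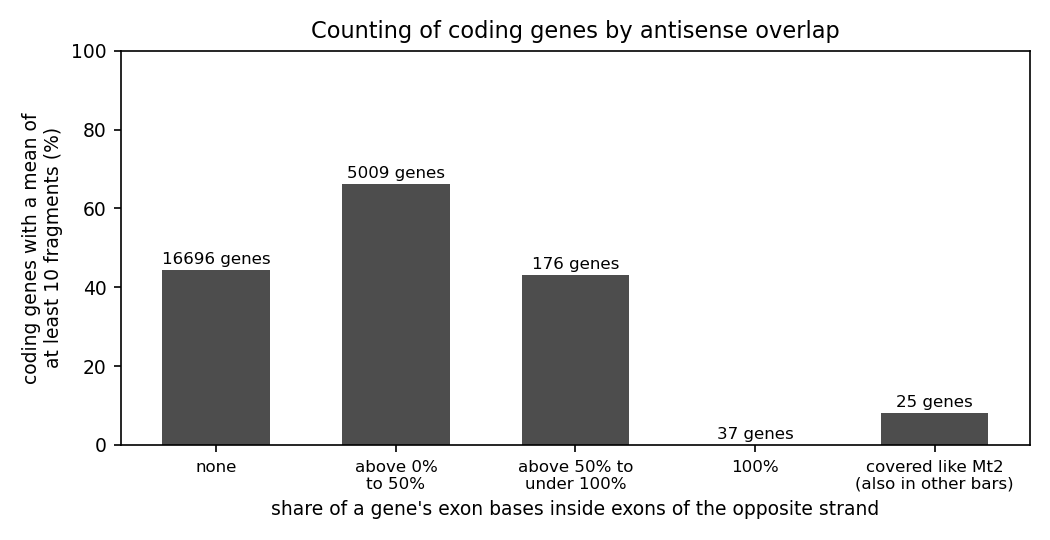
Share of coding genes with a mean of at least 10 fragments over the 6 libraries (vertical axis, %) by how much of their exon length lies inside exons of the opposite strand (horizontal axis), with the number of genes above each bar. The share is 44.4% with no cover, 66.1% up to 50% cover, 43.2% above 50% cover and 0% at full cover, and the last bar holds the 25 genes covered like Mt2, which are also in other bars.

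Other genes of iron metabolism moved in both directions. Of 60 tested genes in 6 lists of iron and heme genes, none of them members, 18 rose, 11 fell and 31 did not pass the test. Over all genes, 31.7% were called. With protein-coding genes only, 32 of the 60 were called beside 3506 of 9338 over all genes. The median log2 fold change of the 60 genes was 0.04. After scaling to TPM, 10 rose and 14 fell, and over all genes the split moved from 1771 higher and 1575 lower to 1088 and 2282. The 29 calls became 18 without Control replicate 1 or 2, and 19 without Control replicate 3 or PGAM5 KD replicate 2. Over all genes, leaving out 1 library also cut the calls, from 3346 to between 2340 and 2858. FPKM summed over all genes was 304393 to 304889 in Control and 317936 to 324298 in PGAM5 KD, a difference that TPM removes.

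In the list of transferrin and non-transferrin iron uptake, 1 of 5 tested genes rose and 3 fell. Steap3, the endosomal reductase that prepares iron for DMT1, had a log2 fold change of −0.65 (SE 0.10, limma adjusted p = 0.00328). Its FPKM was 7.21, 5.58 and 6.91 in Control and 3.56, 3.68 and 4.13 in PGAM5 KD, with no overlap. Lrp1, an endocytic receptor that takes up heme bound to hemopexin among other ligands, had a log2 fold change of −0.34 (limma adjusted p = 0.000798). Slc39a14, an importer of zinc and iron, had one of 0.24 (adjusted p = 0.0369), a call that was lost after scaling to TPM, when low genes were kept in the test, and when any 1 library other than PGAM5 KD replicate 2 was left out.

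Among iron regulatory proteins and genes of ferritin turnover, 2 of 7 rose and 1 fell. Aco1, which encodes iron regulatory protein 1 and also serves as cytosolic aconitase, was at 16.2, 15.3 and 16.9 FPKM in Control and at 12.1, 12.2 and 13.7 FPKM in PGAM5 KD (log2 fold change −0.33, SE 0.06, limma adjusted p = 0.00855). Ireb2, which encodes iron regulatory protein 2, had a log2 fold change of −0.01 (SE 0.06, adjusted p = 0.875) and overlapped between the groups. Zfp36, an mRNA decay factor known to act on Tfrc mRNA, rose with a log2 fold change of 0.44 (limma adjusted p = 0.000632). Fbxl5, which marks iron regulatory protein 2 for degradation, had 0.20 (adjusted p = 0.0435), and its call was lost when any 1 of the 6 libraries was left out, after scaling to TPM and when low genes were kept in the test.

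Of 4 tested genes of iron chaperoning, export and the hepcidin axis, 3 rose. Neo1, a receptor for netrins and for hemojuvelin, was at 1.88, 2.14 and 1.75 FPKM in Control and at 9.34, 7.40 and 8.02 FPKM in PGAM5 KD. Its log2 fold change was 1.66 (SE 0.10, limma adjusted p = 6.05e-05), the largest in these lists. Cp, the ferroxidase that works beside ferroportin, changed by 0.46 on the log2 scale (adjusted p = 0.00383), and Pcbp1, which hands iron to ferritin, had 0.10 (adjusted p = 0.0216). The call of Pcbp1 was lost after scaling to TPM (0.02), with quantile normalization (−0.02), with no mean-variance trend (adjusted p = 0.098) and without Control replicate 1, 2 or 3 or PGAM5 KD replicate 2.

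Heme genes split as well. Of 8 tested genes of heme transport and breakdown, 2 rose and 3 fell. Flvcr1, a heme exporter, and Slc48a1, which moves heme out of lysosomes, had log2 fold changes of −0.64 (limma adjusted p = 0.000342) and −0.42 (adjusted p = 0.00155). The constitutive heme oxygenase Hmox2 had 0.45 (adjusted p = 0.000746). The inducible heme oxygenase Hmox1 was at 126, 119 and 118 FPKM in Control and at 118, 108 and 112 FPKM in PGAM5 KD, overlapping between the groups (log2 fold change −0.10, SE 0.04, limma adjusted p = 0.12), and passed the threshold after scaling to TPM (−0.18, adjusted p = 0.0281) and with quantile normalization (−0.18, adjusted p = 0.0237). Of 12 tested genes of heme synthesis, 3 rose and 1 fell. Cpox, an enzyme of the pathway, had a change of 0.37 on the log2 scale (limma adjusted p = 0.0118), and Tspo, a porphyrin-binding protein of the outer mitochondrial membrane, had 0.29 (adjusted p = 0.0175, and 0.0585 without Control replicate 2).

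Of 24 tested genes of mitochondrial iron and iron-sulfur clusters, 7 rose and 3 fell. Cisd3, an iron-sulfur protein of the mitochondrial matrix, was at 15.3, 16.1 and 16.4 FPKM in Control and at 28.7, 28.3 and 26.6 FPKM in PGAM5 KD (log2 fold change 0.77, SE 0.05, limma adjusted p = 7.1e-05). Slc25a37, or mitoferrin-1, an iron importer of mitochondria, changed by −0.34 on the log2 scale (adjusted p = 0.00818). Nfu1, an iron-sulfur cluster carrier, had 0.30 (adjusted p = 0.0388), a call that was lost after scaling to TPM, when low genes were kept in the test, and without Control replicate 1 or 3 or PGAM5 KD replicate 2 or 3.

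Of 21 tested genes of zinc and copper handling, 3 rose, 5 fell and 13 did not pass the test. This was a share of 38.1% called beside the 31.7% over all genes. With protein-coding genes only, 8 of the 21 were called beside 3506 of 9338 over all genes. After scaling to TPM, which moved calls over all genes toward lower, 3 rose and 7 fell. Mtf1, the zinc sensor of the metallothionein genes, was at 5.01, 5.01 and 5.34 FPKM in Control and at 5.22, 4.41 and 4.92 FPKM in PGAM5 KD, overlapping between the groups (log2 fold change −0.07, SE 0.07, limma adjusted p = 0.515). Slc30a1, a zinc exporter that Mtf1 is known to induce, was at 7.92, 8.76 and 8.85 FPKM in Control and at 6.46, 5.99 and 6.37 FPKM in PGAM5 KD (log2 fold change −0.38, SE 0.06, limma adjusted p = 0.004). The zinc importer Slc39a4 changed by 0.60 on the log2 scale (adjusted p = 0.00215) and the vesicular zinc transporter Slc30a4 one of 0.46 (adjusted p = 0.00782). Slc39a13, which moves zinc out of the secretory pathway, had −0.47 (adjusted p = 0.00408).

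**Figure D5:**
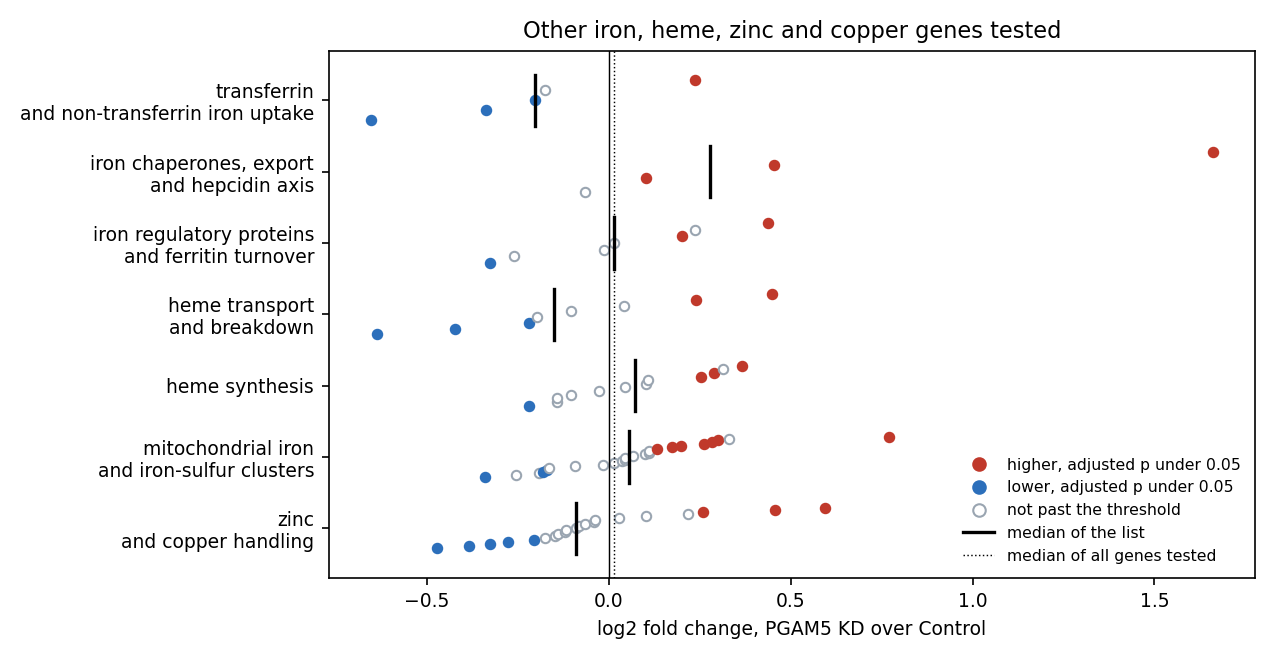
Log2 fold change of PGAM5 KD over Control for each tested gene of 7 lists (points; red, higher and blue, lower at an adjusted p under 0.05; open, not past the threshold), with the median of each list as a black bar and the median of all genes tested as a dotted line. Points lie on both sides of 0 in each list, and Neo1 stands farthest out at 1.66.

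Slc11a2 and Tfrc were the tested members with the largest changes in log2(FPKM + 1). Lcn2 changed more than Tfrc with a pseudocount of 0.1 (0.50 against −0.44) and with voom on recovered fragments (0.58 against −0.44). The same held without PGAM5 KD replicate 2 (0.58 against −0.43). Profiles over the 6 libraries were compared by the root mean square difference of log2(FPKM + 1) around each gene's mean. For Slc11a2 and Tfrc, the nearest genes were found among the other 10539 tested genes. For Slc11a2 these were Rxra, a retinoid X receptor (0.0461), Dpp7, a lysosomal peptidase (0.0550), and Flcn, the folliculin gene (0.0609). For Tfrc they were Myof, a membrane repair protein (0.0189), Tpcn1, an endolysosomal channel (0.0200), and Zfand5, a zinc finger protein (0.0207). Their log2 fold changes were between −0.73 and −0.60 beside Slc11a2 and between −0.45 and −0.40 beside Tfrc, a likeness that the way of choosing them builds in.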

How the data were processed

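RNA-seq was made from poly(A) RNA of 3 Control and 3 PGAM5 KD libraries. The authors deposited FPKM, 1 table per library with every Ensembl gene. The submitters' processing notes name HISAT2 2.0.5, featureCounts 1.5.0-p3 and mm10. The annotation they used is not given in the sources used here, nor is whether the library protocol kept strand. Of the 54532 identifiers, 54495 were in GENCODE M21 (GRCm38), which gave names, positions and exon lengths. FPKM multiplied by exon length gave whole fragments within 0.01 for 96.8% to 97.1% of values under 1000 fragments, from which depth was recovered. Intervals from fragments cover counting error only.

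Log2(FPKM + 1) of all genes with a mean of at least 1 FPKM was compared by limma (version 3.58.1, R 4.3.3). Its linear model and moderated test (two-sided, variance trend on) had p-values adjusted over all these genes after Benjamini and Hochberg. Fold changes on this scale understate those of low genes. Ratios and shares within a library were tested with exact permutation tests over libraries. The fit was tested on simulated data. Look-alike genes were found with blastn 2.17.0. Other values were computed with Python 3.11.15, pandas 2.3.3 and scipy 1.17.1, and figures with matplotlib 3.10.9.

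The members and lists were chosen with earlier results of these data known, so counts over them are descriptions. Besides the members and Pgam5, the genes named are look-alikes with at least 1% of a member's fragments, at most 3 called genes per list by size of change, Aco1, Ireb2, Hmox1, Mtf1, Slc30a1, and the 3 nearest profiles of the 2 members with the largest change in log2(FPKM + 1). Fth-ps2, Fth-ps3, Gm6977, Gm10252, Gm45774 and the macrophage markers were named after their values were seen. A gene of the heme synthesis list that this rule names is not reported here. Alternatives were a pseudocount of 0.1, no filter, a mean FPKM of at least 5, TPM, quantile normalization, voom on recovered fragments, no trend, the replicate number as a replicate block, each library left out and look-alikes added. Protein-coding genes only, the look-alike share without Cars, and levels per first-numbered transcript were chosen after seeing the data.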

Additional observations from a re-analysis of the deposited data

How the results depend on the processing

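Of 123 values of single members under alternatives, 109 kept their direction and their side of the threshold, and the calls that changed were those of Fth1, Ftl1, Ncoa4 and Lcn2. With no filter on low values, which tests 20816 genes, 2 of 10 members were called in place of 4 of 8. Leaving out 1 library at a time gave 2340 to 2858 called genes in place of 3346. It gave 3 to 5 called members and 18 to 26 called iron genes in place of 29. The difference in the log2 ratio of Fth1 to Ftl1 then lay between −0.065 and 0.0481, in both directions. The direction of Slc11a1 turned after scaling to TPM (−0.031), and that of Mt1 turned after scaling to TPM (−0.0134) and with quantile normalization (−0.0198), none of them called. Pcbp1 turned with quantile normalization (−0.021), and Ireb2 ranged from −0.0644 to 0.0162 when 1 library was left out, above 0 without Control replicate 2, PGAM5 KD replicate 2 or PGAM5 KD replicate 3. The 139 genes past both thresholds became 233 with TPM, 261 with a pseudocount of 0.1, 283 with voom on recovered fragments and 76 at a mean FPKM of at least 5. Same-numbered libraries did not deviate together (correlations −0.02, 0.02 and −0.05), so the numbers were not taken to pair the libraries. With a replicate block, 2652 genes were called in place of 3346, with 3 members (Ftl1 lost, adjusted p = 0.0548 from limma), 21 iron genes and 7 zinc and copper genes. Among the named iron genes the block ended the calls of Slc39a14 (adjusted p = 0.0573), Pcbp1 (0.0635), Nfu1 (0.0701) and Fbxl5 (0.101). Apart from the settings named for each result, the cause of these changes was not tested. No value was given for the ratio of Mt1 to Mt2 under any alternative, since Mt2 was at 0 in 5 libraries. Counting error is largest for the genes with few fragments, and Slc40a1 and Lcn2 had between 39 and 145 in a library.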
